A study of Equus caballus with 12 samples.

Results

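The chromatin and DNA methylation modifier genes are the enzymes and complexes that write, erase and read marks on histones and DNA or move nucleosomes. The 44 members were the genes of the deposited table whose Ensembl identifier was paired in the study's supplementary gene lists with a name of the HDAC, SIRT, KDM, KMT, KAT, SETD, PRMT, SMARC, CHD, BRD, ING, DNMT, TET or UHRF families. They were 44 of 11425 genes. A RefSeq table of horse genes holds 115 protein-coding symbols that fit the same name rule, so 71 family symbols had no pair here and were not analysed. Names were paired for 2571 genes (22.5%), and the supplied lists are ordered by fold change against FR with the lowest first, so a gene lower in a vitrified group than in FR was more likely to have a name. Counts of direction among the members are therefore given as description.

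The libraries hold messenger RNA of pooled horse oocytes matured in vitro, with a mean of 23 oocytes per pool. FR oocytes were matured fresh (n = 5 libraries), VMAT oocytes were matured, vitrified and warmed (n = 3), and VIM oocytes were vitrified while immature, at the germinal vesicle stage, then warmed and matured (n = 4). Vitrification is cooling to a glass in concentrated cryoprotectant without ice crystals. All groups were collected after denudation with a visible polar body. The ovaries came from a slaughterhouse. The labels do not say which animals went into which pool, so p-values measure only the spread between these pools.

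A fully grown oocyte stores messenger RNA for chromatin proteins and transcribes little during maturation. DNMT1 copies DNA methylation onto new strands, with UHRF1 as its guide to hemimethylated sites, DNMT3A sets new methylation in the growing oocyte, and TET3 oxidises methylated cytosine in the zygote. Histone methyltransferases (KMT, SETD, PRMT) and demethylases (KDM) set and remove methyl groups, acetyltransferases (KAT) and deacetylases (HDAC, SIRT) do so for acetyl groups, bromodomain (BRD) and ING proteins bind the marks, and SMARC and CHD proteins use ATP to move nucleosomes or belong to complexes that do.

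Values are normalized counts, that is reads divided by 1 size factor per library. The kit reads 1 end of each molecule near its 3′ end, so values were not divided by gene length when levels of different genes were set side by side. After this scaling, a change in total messenger RNA per oocyte cannot be told apart from no change. Libraries held 1636620 (VMAT 1) to 12166950 (VMAT 2) reads on genes, with a median of 2899468, and 1 read was worth 3.11 in VMAT 1 and 0.125 in VMAT 2. Of the 15 oocyte markers, 11 had a name, and their summed level was 18392 to 22674 in FR, 14064 to 21415 in VIM and 14709 to 32466 in VMAT, with GDF9 and DPPA3 among them. Of the 19 cumulus and granulosa markers, 1 had a name: HAS2, the hyaluronan synthase of cumulus cells, was at 462 to 1239 in FR, 641 to 2144 in VIM and 254 to 1755 in VMAT. None of the 5 blood markers had a name, and the part of other cells in the results was not tested.

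The mean of the members over all libraries ranked from 19 (ING3) to 6615 (KDM2A) among 11425 genes, with a median rank of 951, and 23 of the 44 (52.3%) were in the top 1000. The members come only from genes with a name, which had a median rank of 1601 and 32.0% in the top 1000. Together they held 2.14% ± 0.508 (SD, n = 5) of the reads in FR, 1.93% ± 0.126 (n = 4) in VIM and 1.78% ± 0.248 (n = 3) in VMAT, and these ranges overlapped. Members with at least 3 reads numbered 36 (81.8%) in VMAT 1, where 76.2% of the genes with a name and 29.4% of all genes did, and all 44 in VMAT 2, where 99.9% and 70.9% did. The map of all members gives the level of each gene in each library.

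**Figure D1:**
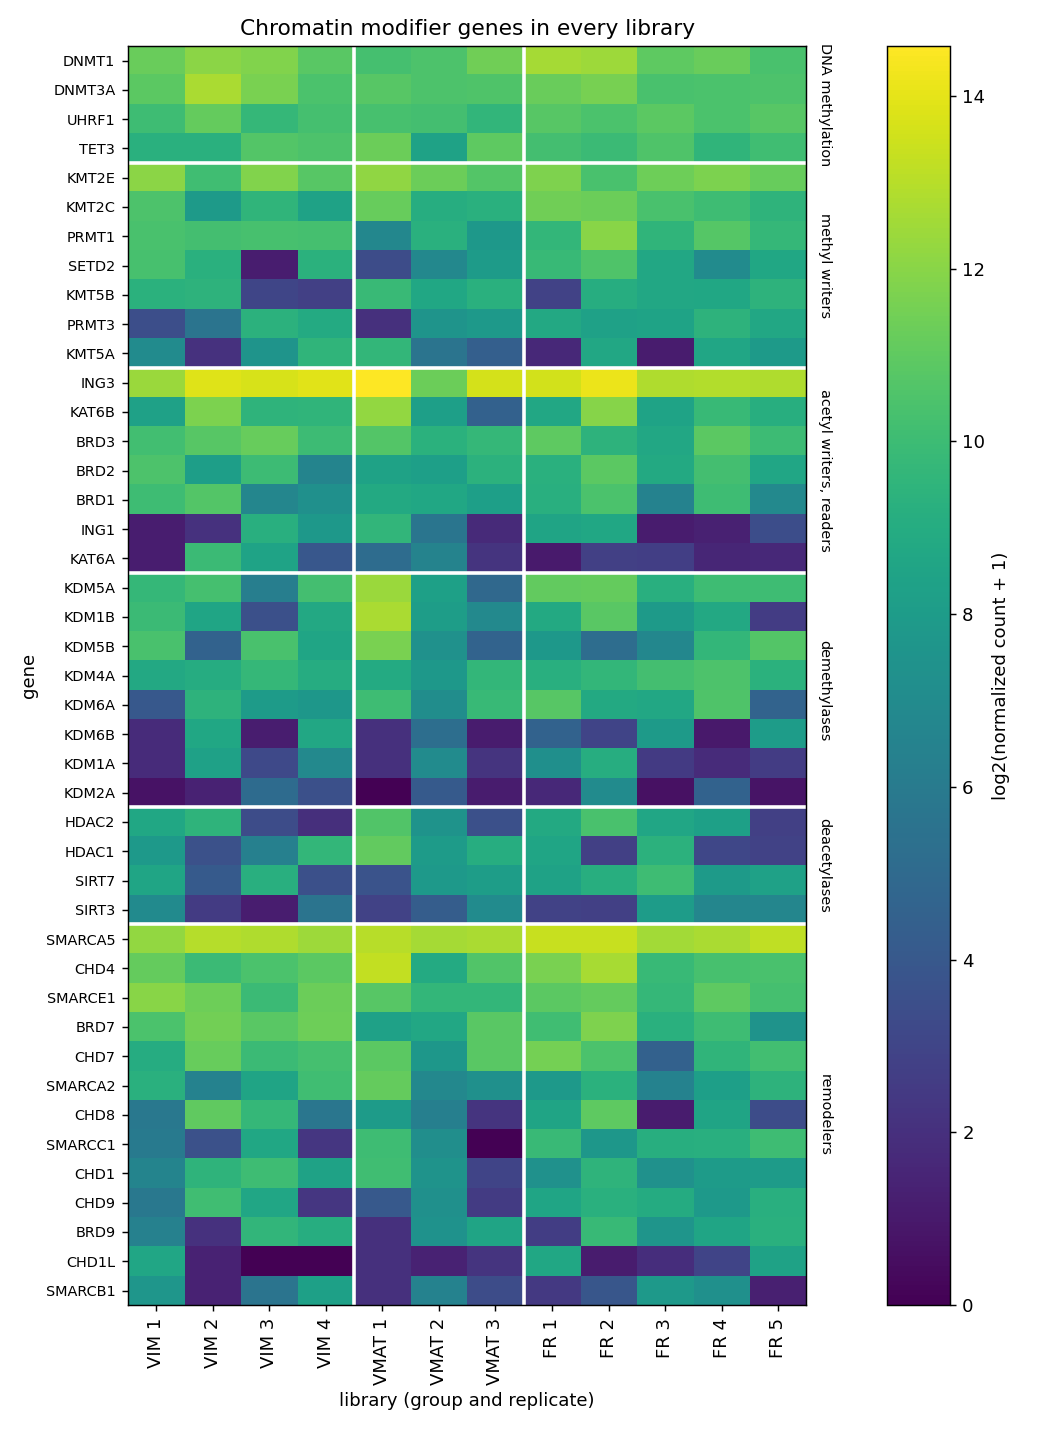
Log2(normalized count + 1) of 43 of the 44 chromatin modifier genes (rows, ordered by role and then mean) in the 12 libraries (columns, by group and replicate); dark cells are low. ING3 and SMARCA5 are bright in every library, while genes such as KAT6A, KDM6B and ING1 switch between dark and bright within a group.

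The 4 DNA methylation genes were all at 100 or more reads in every library, and none passed the test between groups in limma, a linear model fitted to log2(normalized count + 1) of all genes. Their identifiers are ENSECAG00000026909 (DNMT1), ENSECAG00000025086 (DNMT3A), ENSECAG00000013193 (UHRF1) and ENSECAG00000011391 (TET3). In VIM 1 to 4, the normalized counts of DNMT1 were 2397, 4269, 3596 and 1818, against 1229, 1444 and 2773 in VMAT 1 to 3 and 6272, 5648, 1971, 2473 and 1321 in FR 1 to 5. Its 2 highest libraries were FR 1 and FR 2, and all groups overlapped. The mean was 3537 ± 2260.1 (SD, n = 5) in FR, 3019.9 ± 1114 (n = 4) in VIM and 1816 ± 836 (n = 3) in VMAT. The log2 fold change against FR was -0.05 ± 0.51 (SE) for VIM and -0.80 ± 0.71 (SE) for VMAT, with exact two-sided permutation p = 0.921 and 0.286. VIM minus VMAT was 0.75 ± 0.83 (SE) (exact permutation p = 0.143). Without FR 1, the value for VMAT against FR was -0.53.

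UHRF1, the partner of DNMT1, had lower values in the VMAT libraries than in the FR libraries. The libraries of UHRF1 held 1055, 2284, 822 and 1253 in VIM, 1276, 1199 and 782 in VMAT and 1771, 1373, 1911, 1376 and 1774 in FR, in replicate order. Every VMAT library was below every FR library, from 782 to 1276 against 1373 to 1911, while VIM overlapped both. The log2 fold change in VMAT vs. FR was -0.61 ± 0.80 (SE), with exact permutation p = 0.0357, and limma adjusted p = 0.977 over all genes. The fold change was -0.39 without VMAT 3. The separation depended on the scale: in CPM (reads scaled to the same total in every library), the VMAT libraries were at 251, 787 and 271 and the FR libraries at 579.8, 438, 788, 578 and 693, which overlapped. VIM differed from FR by -0.37 ± 0.58 (SE) on the log2 scale (exact permutation p = 0.230) and from VMAT by 0.24 ± 1.02 (SE) (exact permutation p = 0.686).

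DNMT3A was highest in VIM 2. Normalized counts of DNMT3A were 2403, 3133, 1332, 1421 and 1455 in FR, 1907, 6791, 3151 and 1371 in VIM and 1783, 1442 and 1521 in VMAT. Without that library the log2 fold change in VIM vs. FR was 0.14, against 0.58 ± 0.55 (SE) with it (exact permutation p = 0.341). On the deposited scale the VMAT libraries of DNMT3A lay within the FR range, with a log2 fold change of -0.22 ± 0.75 (SE) (exact permutation p = 0.554). In CPM the VMAT libraries were at 350, 946 and 527 and the FR libraries at 787, 999, 549, 597 and 568. On that scale VMAT 1 and VMAT 3 were below every FR library and VMAT 2 was within the FR range. VIM vs. VMAT gave 0.80 ± 0.85 (SE) (exact permutation p = 0.286), or 0.36 without VIM 2. The VMAT vs. FR value was -0.03 without FR 2.

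On the deposited scale, TET3 had its highest and lowest library in the same group. For TET3, the FR libraries gave 1216, 984, 1533, 755 and 1113, the VIM libraries 609.6, 609.6, 1632 and 1477 and the VMAT libraries 2552, 332 and 2014. VMAT spanned 332 (VMAT 2) to 2552 (VMAT 1), a wider range than VIM or FR. In CPM the highest library was VMAT 3 (698) and the lowest was VIM 2 (176). On the log2 scale TET3 differed from FR by -0.16 ± 0.67 (SE) in VIM and 0.13 ± 0.89 (SE) in VMAT, and VIM minus VMAT was -0.30 ± 1.06 (SE), with exact permutation p = 0.698, 0.875 and 0.80, respectively. The 95% interval in VIM vs. FR ran from -1.55 to 1.22, so a change of 1 log2 unit either way was within it. Leaving out 1 library turned the sign of TET3 in all 3 comparisons.

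**Figure D2:**
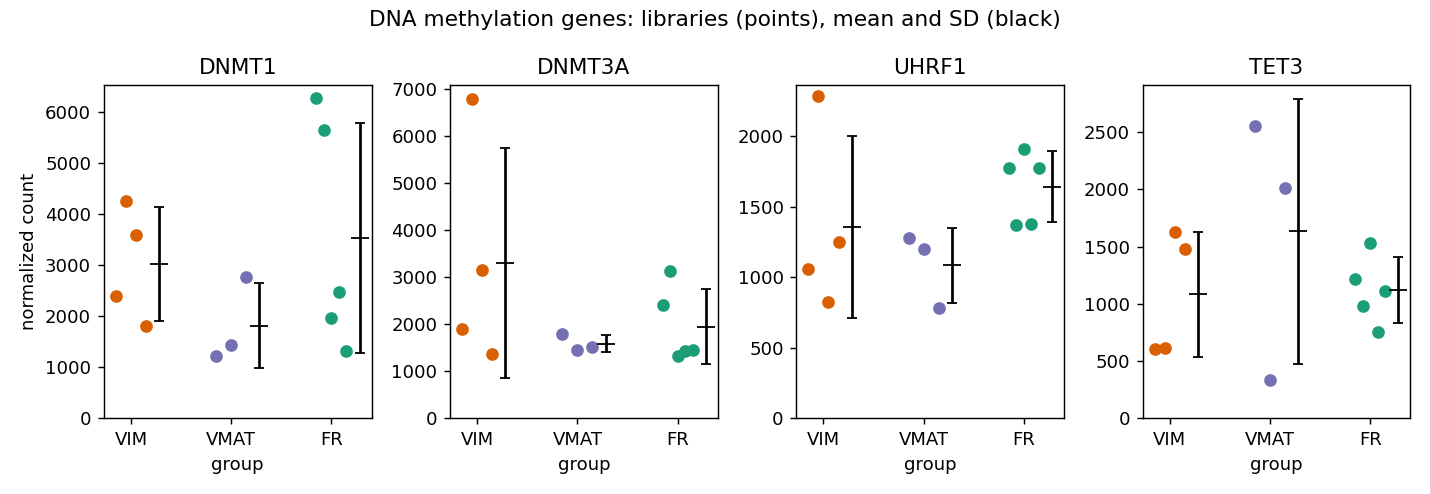
Normalized counts of DNMT1, DNMT3A, UHRF1 and TET3 by group (x axis); points are libraries, black marks the mean with its SD. The UHRF1 points of VMAT (782 to 1276) lie below those of FR (1373 to 1911), and all other groups overlap.

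Among the members grouped by name (KMT, SETD, PRMT) as histone methyltransferases, KMT2E, a SET-domain protein of the KMT2 family, had the highest mean. Enzyme activity was not measured. In VIM 1 to 4, the normalized counts of KMT2E were 4253, 1102, 3557 and 1741, against 4506, 2485 and 1632 in VMAT 1 to 3 and 3418, 1365, 2583, 3377 and 2339 in FR 1 to 5. It overlapped in all 3 groups, and its log2 fold change against FR was -0.10 ± 0.52 (SE) for VIM and 0.08 ± 0.68 (SE) for VMAT. KMT2C, an enzyme that methylates histone H3 at enhancers, was lower on average in VIM. Normalized counts of KMT2C were 2731, 2484, 1336, 1065 and 724 in FR, 1438, 241, 747 and 331 in VIM and 2371, 536 and 613 in VMAT. On the deposited scale VIM 1 and VIM 3 lay within the FR range, and VIM 2 and VIM 4 below it. In CPM (reads scaled to the same total in every library) VIM 3, at 245, was also below the lowest FR library (283). VIM vs. FR gave -1.44 ± 0.75 (SE) on the log2 scale, with limma adjusted p = 0.902.

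PRMT1, the main arginine methyltransferase of the cell, separated VMAT from both other groups. The libraries of PRMT1 held 1362, 1182, 1268 and 1241 in VIM, 106, 599 and 216 in VMAT and 812, 4071, 735, 1675 and 831 in FR, in replicate order. The VMAT libraries were all below every VIM library and every FR library, and VIM lay within the FR range. The log2 fold change was -2.41 ± 1.04 (SE) in VMAT vs. FR and 2.39 ± 1.24 (SE) in VIM vs. VMAT, with limma adjusted p = 0.950 and 0.967, so neither passed. VMAT 1 held 34 reads. In CPM, the VMAT libraries were at 20.8, 393 and 74.8, the FR libraries at 266, 1299, 303, 704 and 324 and the VIM libraries at 564, 341, 416 and 428, where VMAT 2 overlapped both groups.

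SETD2, which trimethylates histone H3 on transcribed genes, ranged from 1.21 (VIM 3) to 1521 (FR 2). For SETD2, the FR libraries gave 913, 1521, 422, 131 and 413, the VIM libraries 1298, 606, 1.21 and 624 and the VMAT libraries 9.34, 110.3 and 258. On the deposited scale VIM 3 and VMAT 1 were below 10 and VMAT 2 was below the lowest FR library. The other vitrified libraries were within the FR range on that scale. In CPM VMAT 2, at 72.4, was above FR 4 (55.1), and VIM 1, at 538, was above the highest FR library (485). VMAT vs. FR gave -2.91 ± 1.44 (SE) on the log2 scale (limma adjusted p = 0.950), or -1.57 without VMAT 1. KMT5B, a methyltransferase of histone H4, had FR values of 6.47, 544, 423, 411 and 682, VMAT values of 958, 418 and 618 and VIM values of 633, 681, 7.23 and 5.87. VIM 3, VIM 4 and FR 1 were below 10 and all other libraries above 400. In VIM vs. VMAT the log2 fold change was -3.16 ± 1.79 (SE) (limma adjusted p = 0.967), or -2.04 without VIM 4. By mean over all libraries, the other members of this group by name were PRMT3 (323) and KMT5A (249).

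ING3, a subunit of the NuA4 acetyltransferase complex that reads methylated histone H3, was the most abundant member. Normalized counts of ING3 were 12318, 18376, 7282, 7598 and 7245 in FR, 5309, 14914, 13418 and 15573 in VIM and 24468, 2536 and 12900.5 in VMAT. VMAT held both the lowest and the highest library on this scale. In CPM the lowest was again VMAT 2 (1664), but the highest was FR 2 (5861). ING3 differed from FR by 0.21 ± 0.34 (SE) in VIM and -0.08 ± 0.53 (SE) in VMAT on the log2 scale. KAT6A, an acetyltransferase of the MYST family, was at or below 5.72 in every FR library. The libraries of KAT6A held 1.23, 983, 354 and 14.7 in VIM, 34.2, 92.4 and 3.54 in VMAT and 1.08, 5.72, 5.60, 2.02 and 2.15 in FR, in replicate order. VIM 2 and VIM 3 were high, VIM 1 was within the FR range, and VIM 4 was in between. The log2 fold change in VIM vs. FR was 3.93 ± 2.30 (SE) in limma (adjusted p = 0.902, and a log2 fold change of 2.58 without VIM 2), while DESeq2, a count model run on the recovered reads, gave 6.69 (adjusted p = 0.00111), and edgeR did not call it (adjusted p = 0.281). By mean over all libraries, the other acetyl writers and readers described were KAT6B (1357), BRD3 (1289), BRD2 (724), BRD1 (612) and ING1 (201). BRD2 and BRD3 bind acetylated histones at active genes, and BRD3 was at 100 or more reads in every library.

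The demethylases were less abundant, from KDM5A at a mean of 1343 to KDM2A at 18.5. KDM5A removes methyl groups from lysine 4 of histone H3. In VIM 1 to 4, the normalized counts of KDM5A were 834, 1250.2, 73.5 and 1207, against 5259, 316 and 29.5 in VMAT 1 to 3 and 2162, 2252, 582, 1079.6 and 1072 in FR 1 to 5. VMAT held the highest library and the lowest, and FR spanned 582 to 2252. By mean over all libraries, the other demethylases were KDM1B (999), KDM5B (775), KDM4A (708), KDM6A (625), KDM6B (118), KDM1A (107) and KDM2A (18.5). KDM6A and KDM6B act on lysine 27 of histone H3, and KDM1A and KDM1B on lysine 4. KDM4A was the single demethylase with 100 or more reads in every library. Demethylases took 8.05% ± 1.55 (SD, n = 5) of the members' reads in FR, 5.91% ± 1.64 (n = 4) in VIM and 8.37% ± 6.59 (n = 3) in VMAT.

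The deacetylases HDAC1 and HDAC2, catalytic subunits of the same corepressor complexes, varied widely between libraries. For HDAC1, the FR libraries gave 374, 5.72, 657, 7.57 and 6.44, the VIM libraries 240.0, 11.4, 79.5 and 797 and the VMAT libraries 2188, 259 and 545. FR fell into 2 libraries above 370 and 3 below 10, while VMAT was above 250 throughout. In VMAT vs. FR the log2 fold change of HDAC1 was 4.07 ± 1.83 (SE) with limma adjusted p = 0.950, and in VIM vs. VMAT -2.52 ± 1.63 (SE) with adjusted p = 0.967, or -1.44 without VIM 2 and -1.68 without VMAT 1. Normalized counts of HDAC2 were 469, 1367, 392, 306 and 5.73 in FR, 409, 707, 9.64 and 2.93 in VIM and 1559, 182 and 10.6 in VMAT. Its low libraries were FR 5, VIM 3, VIM 4 and VMAT 3. On the deposited scale SIRT7, a nucleolar deacetylase, was lower than every FR library in VIM 2, VIM 4, VMAT 1 and VMAT 2. The libraries of SIRT7 held 374, 16.3, 597 and 10.8 in VIM, 12.4, 228 and 279 in VMAT and 337, 572, 1045, 249.7 and 321 in FR, in replicate order. In CPM VMAT 2, at 149, was within the FR range of 105 to 431, and VMAT 3, at 96.8, was below it. VIM vs. FR gave -2.42 ± 1.36 (SE) (limma adjusted p = 0.902), or -1.48 without VIM 4. SIRT3, a mitochondrial deacetylase in its main role, had a mean of 68.0.

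SMARCA5, the ATPase of the ISWI remodelers, was the steadiest member. In VIM 1 to 4, the normalized counts of SMARCA5 were 4719, 8052, 7330.3 and 5529, against 8296, 6153 and 6816 in VMAT 1 to 3 and 10581, 10416, 6135, 6844 and 9224 in FR 1 to 5. The highest library was 2.24-fold above the lowest, and the groups overlapped. SMARCA5 differed by -0.43 ± 0.31 (SE) on the log2 scale in VIM vs. FR, with a 95% interval of -1.06 to 0.20 and limma adjusted p = 0.902. In CPM the scale moved the order: the VIM libraries were at 1956, 2327, 2405 and 1907 and the FR libraries at 3463, 3322, 2530.1, 2877 and 3601, with all VIM below all FR.

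SMARCC1, a core scaffold of the BAF remodelers, was lower on average in VIM and was the member with the smallest p in VIM vs. FR. The libraries of SMARCC1 held 63.8, 11.4, 415 and 3.91 in VIM, 1070.5, 144 and 0 in VMAT and 956, 213, 569.9, 593 and 1067 in FR, in replicate order. VIM 3 was above FR 2, the other VIM libraries were below all of FR, and VMAT 3 was at 0 reads, which allows up to 3.54 in that library. The log2 fold change against FR was -4.05 ± 1.41 (SE) for VIM and -3.47 ± 1.62 (SE) for VMAT, with limma adjusted p = 0.902 and 0.950. The second of these was -0.59 without VMAT 3 and -5.63 without VMAT 1. BRD7, a bromodomain subunit of the PBAF remodeler, was higher on average in VIM. Normalized counts of BRD7 were 1093, 3519.6, 621, 1076 and 178 in FR, 1373, 2846, 1875 and 2663 in VIM and 324, 428 and 1843 in VMAT. All 4 VIM libraries were above 4 of the 5 FR libraries, with FR 2 highest of all, and the log2 fold change in VIM vs. FR was 1.3 ± 0.74 (SE) (limma adjusted p = 0.902), or 0.73 without FR 5. VIM vs. VMAT gave 1.73 ± 1 (SE) (adjusted p = 0.967).

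CHD9, a chromodomain remodeler, had FR libraries in a narrow band. For CHD9, the FR libraries gave 373, 613, 494, 237 and 582, the VIM libraries 55.9, 1115, 389 and 3.91 and the VMAT libraries 15.6, 159.8 and 4.72. All VMAT libraries lay below all FR libraries and VIM overlapped both, and VMAT vs. FR gave -4.14 ± 1.58 (SE) on the log2 scale (limma adjusted p = 0.950). In CPM VMAT 2 was at 105 and overlapped FR, which ran from 99.5 to 227. CHD8, another remodeler of the family, was highest in VIM 2 and FR 2 and at 1.12 in FR 3. In VIM 1 to 4, the normalized counts of CHD8 were 57.1, 2070.1, 835 and 52.8, against 258, 78.8 and 3.54 in VMAT 1 to 3 and 358, 2030.3, 1.12, 359.7 and 9.31 in FR 1 to 5. The range within FR covered that of VMAT and nearly that of VIM, and VIM vs. VMAT gave 2.58 ± 1.95 (SE) (limma adjusted p = 0.967), 0.92 without VMAT 3 and 1.60 without VIM 2. By mean over all libraries, the other remodelers were CHD4 (2637), SMARCE1 (1801), CHD7 (1276), SMARCA2 (552), CHD1 (422), BRD9 (336), CHD1L (97.0) and SMARCB1 (88.9). CHD4 is the ATPase of the NuRD complex, and SMARCE1, SMARCA2 and SMARCB1 belong to BAF complexes.

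The members were split by their lowest library. In 14 members every library held at least 100 reads, and the SD between libraries of a group, pooled over groups, was 0.333 (SMARCA5) to 1.32 on the log2 scale with a median of 0.790. The other 30 had SDs of 0.916 to 3.88 (ING1) with a median of 2.67, and since a single low library puts a gene among these 30, their wider spread follows from the split. The split is not one of mean level: KAT6B and KDM5A are among the 30 with higher means than KDM4A among the 14. Of 528 values (44 genes in 12 libraries), 410 (77.7%) rested on 100 or more reads, 17 (3.22%) on 30 to 99 and 101 (19.1%) on fewer than 30. In 25 members at least 1 group held libraries on both sides, under 30 and at or above 100 reads. This was so for 14 members in FR, 20 in VIM and 20 in VMAT. Beside the genes whose mean was 0.8 to 1.25 times its own, a member's SD was below their median SD in 22 of 44 cases.

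**Figure D3:**
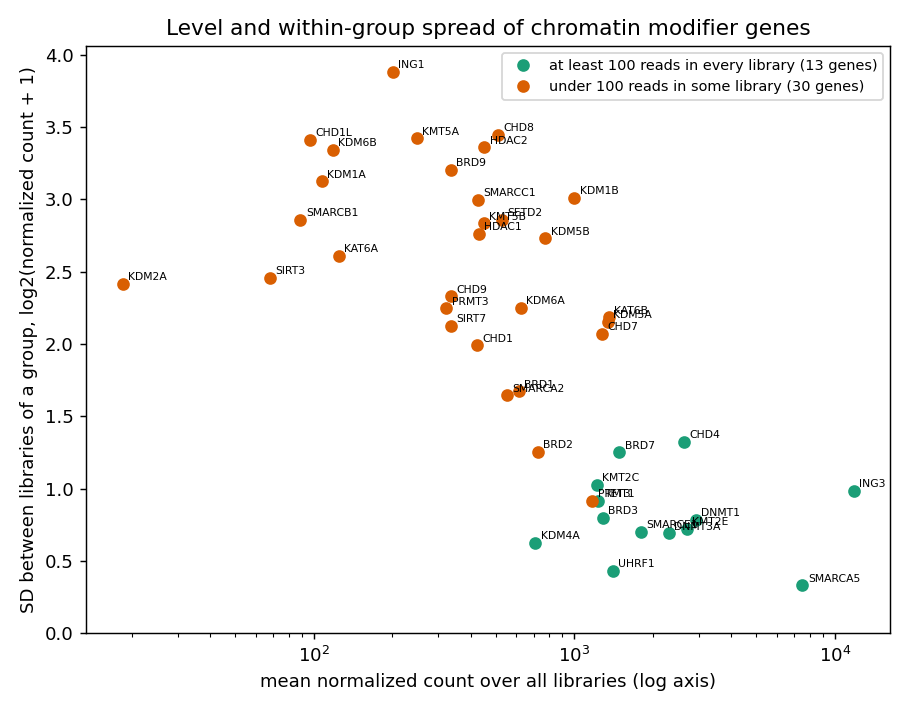
Pooled within-group SD of log2(normalized count + 1) (y axis) against the mean normalized count (x axis, log scale), 1 point for each of 43 members, coloured by whether every library held at least 100 reads. The 13 shown members that did lie at SDs of 0.333 to 1.32, and most of the other 30 lie above them.

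In VIM vs. FR, limma called 0 of 44 members (background 0.0% of 7351 genes tested) at an adjusted p of at most 0.05 and a log2 fold change of at least 1 either way, and the smallest adjusted p was 0.902. At an unadjusted p under 0.05, 1 member was found (SMARCC1), beside 3.78% of all genes. The edgeR quasi-likelihood test called 0 members (background 0.0%). It found 1 at an unadjusted p under 0.05 (background 16.8% of all genes, but 4.40% of the genes with a name). DESeq2 called 1, KAT6A (background 6.87%, or 4.01% of the genes with a name). No member had groups that did not overlap, where 1.59% of genes did. Of the 44 fold changes, 24 were below 0 (background 53.1%, or 59.0% of the genes with a name). Their median was -0.06, against -0.12 over all genes and -0.27 over the genes with a name.

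In VMAT vs. FR, limma called 0 of 44 members (background 0.0% of 8305 genes), with a smallest adjusted p of 0.950, and 4 members had an unadjusted p under 0.05 (CHD9, HDAC1, PRMT1 and SMARCC1; background 3.62%). The groups did not overlap for 4 members (CHD9, PRMT1, UHRF1 and PRMT3, background 3.19%), and for 0 in CPM (background 2.71%). PRMT3, an arginine methyltransferase with a ribosomal protein as substrate, was named after its values were seen. By edgeR 0 members were called (background 0.012%). At an unadjusted edgeR p under 0.05 there was 1 (background 13.6% of all genes, but 3.11% of the genes with a name). By DESeq2 1 was called, CHD1L, which was also named after its values were seen (background 4.26%, or 2.18% of the genes with a name). CHD1L, a remodeler of DNA repair, was at 3.11, 1.63 and 3.54 in VMAT and 406, 1.14, 2.80, 7.06 and 342 in FR, with FR 1 and FR 5 high and every other library of these groups at or below 7.06. Below 0 were 32 of 44 fold changes (background 49.7%, or 59.5% of the genes with a name). By DESeq2 26 were, where 53.2% of all genes were. The limma median was -0.57, against 0.01 over all genes and -0.31 over the genes with a name.

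In VIM vs. VMAT, limma called 0 of 44 members (background 0.0% of 7627 genes), with a smallest adjusted p of 0.967. At an unadjusted limma p under 0.05 there were 0 (background 2.98%). By edgeR 0 were called (background 0.0131%), and 0 had an unadjusted p under 0.05 (background 10.8% of all genes, but 2.02% of the genes with a name). DESeq2 called 0 (background 3.87%, or 2.06% of the genes with a name). PRMT1 alone did not overlap (background 4.5%). Fold changes below 0 numbered 16 of 44 (background 52.2%, or 49.2% of the genes with a name). By DESeq2 21 were, where 48.1% of all genes were. The limma median was 0.33, against -0.08 over all genes and 0.03 over the genes with a name. The comparisons share libraries (FR in the first 2, VIM or VMAT in the last), so their values are not independent.

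Wide intervals accompanied most of these fold changes. The 95% intervals reached either side of the estimate by amounts that, over the members, had a median of 2.50 log2 units for VIM against FR, 2.78 for VMAT against FR and 3.08 for VIM against VMAT. The lowest were 0.632, 0.920 and 1.04. Roles were assigned to each gene and not measured here. By role, no fold change passed the test. The median in VIM vs. FR was -1.44 for the 7 histone methyltransferases (6 below 0), -1.63 for the 4 deacetylases (3 below 0), -0.16 for the 8 demethylases (5 below 0), -0.11 for the 4 DNA methylation genes (3 below 0), 0.17 for the 8 acetyl writers and readers (1 below 0) and 0.33 for the 13 remodelers (6 below 0). In VMAT vs. FR it was -0.68 for histone methyltransferases (4 below 0), -0.62 for deacetylases (3 below 0), -0.94 for demethylases (6 below 0), -0.42 for DNA methylation genes (3 below 0), -0.05 for acetyl writers and readers (5 below 0) and -0.57 for remodelers (11 below 0).

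**Figure D4:**
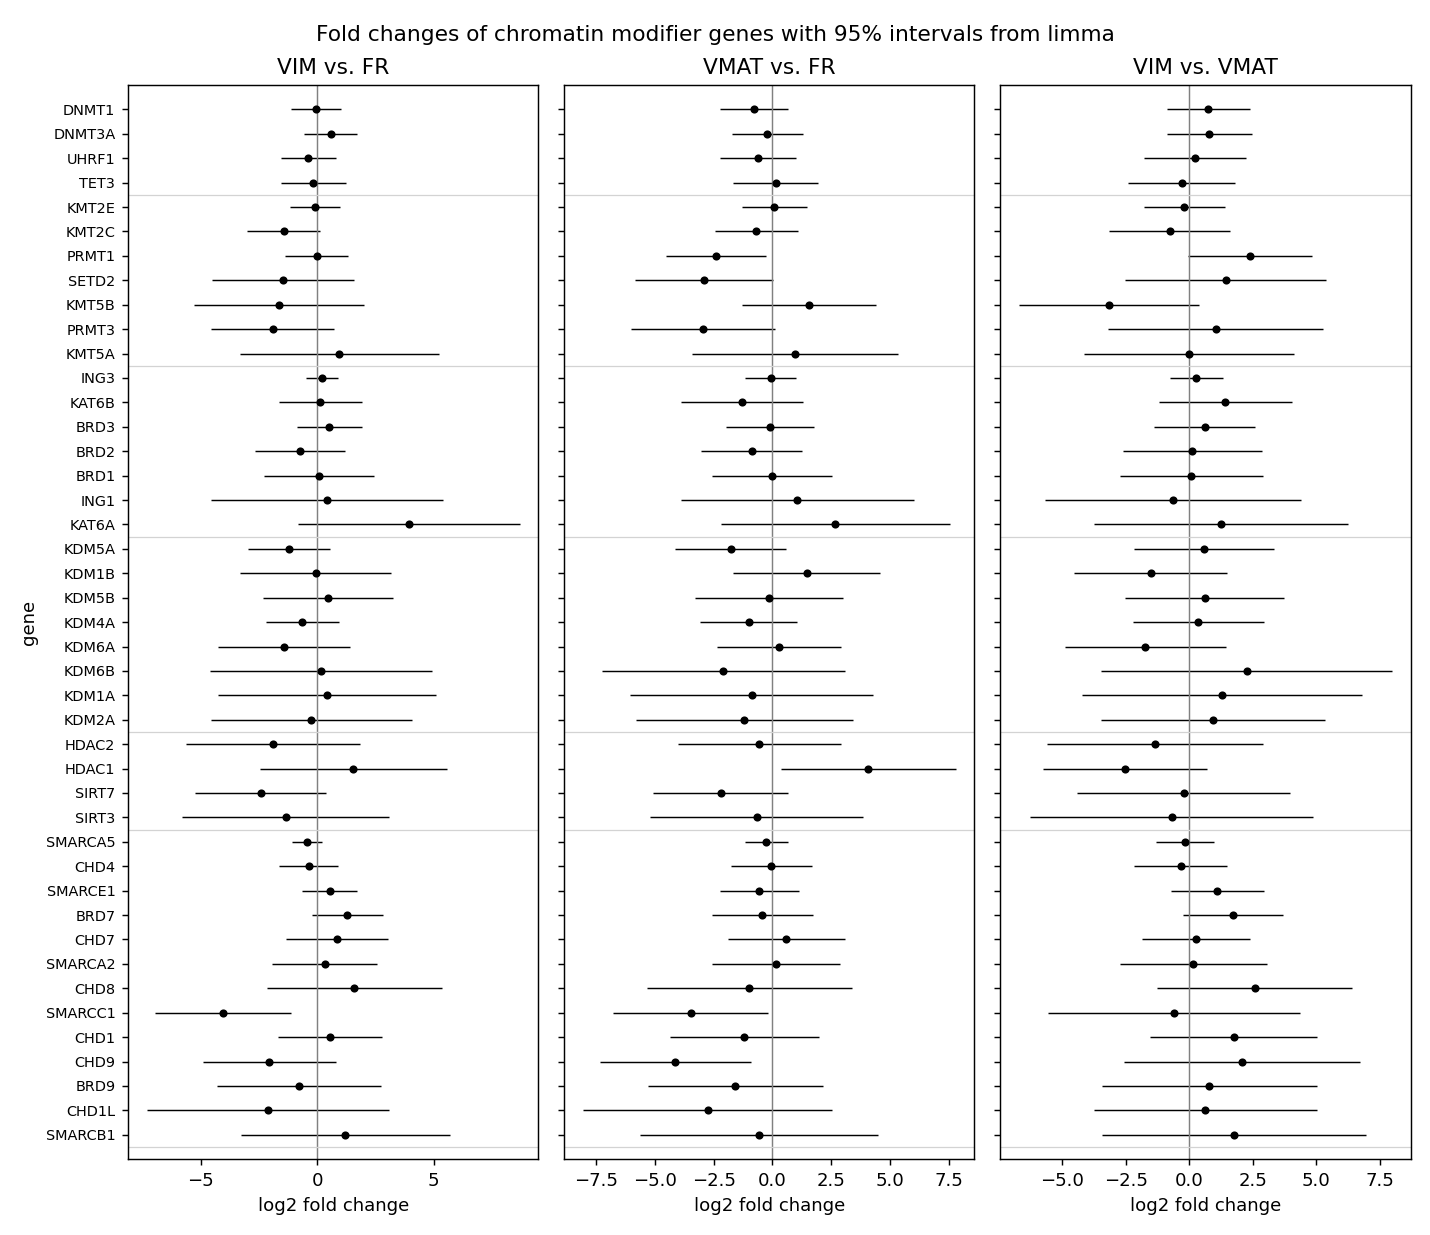
Log2 fold changes (x axis) of 43 of the 44 members (rows, by role) with 95% intervals from limma, 1 panel per comparison; the vertical line marks 0. Genes at 100 or more reads in every library, such as SMARCA5, have short bars, and no member passed an adjusted p of 0.05.

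Close family members were set side by side because each pair shares an enzyme activity. KAT6B was above KAT6A in 12 of 12 libraries, with means of 1357 and 125. KDM1B, the demethylase known in oocytes for imprint setting, was above KDM1A in 11 of 12 libraries and equal to it in FR 5, with means of 999 and 107. The KDM1B mean leaned on VMAT 1 (6781), and the medians were 414 and 6.72. In 3 libraries neither of these 2 genes reached 100 reads. KDM6A was above KDM6B in 10 of 12, KMT5B above KMT5A in 10 of 12 and KDM5A above KDM5B in 9 of 12. HDAC1 and HDAC2 had no fixed order: HDAC1 was higher in 7 libraries and HDAC2 in 5. In VIM and VMAT, KAT6B exceeded KAT6A by 3.88 ± 2.98 (SD, n = 4) and 3.71 ± 2.92 (n = 3) log2 units, against 7.67 ± 1.27 (n = 5) in FR. KAT6A held only 1, 5, 10, 4 and 3 reads in FR 1 to 5, and fewer than 30 reads in 9 of 12 libraries. The FR difference therefore depends on values near the floor. Reads from near-identical parts of paralogs could be split between the genes by the counting.

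**Figure D5:**
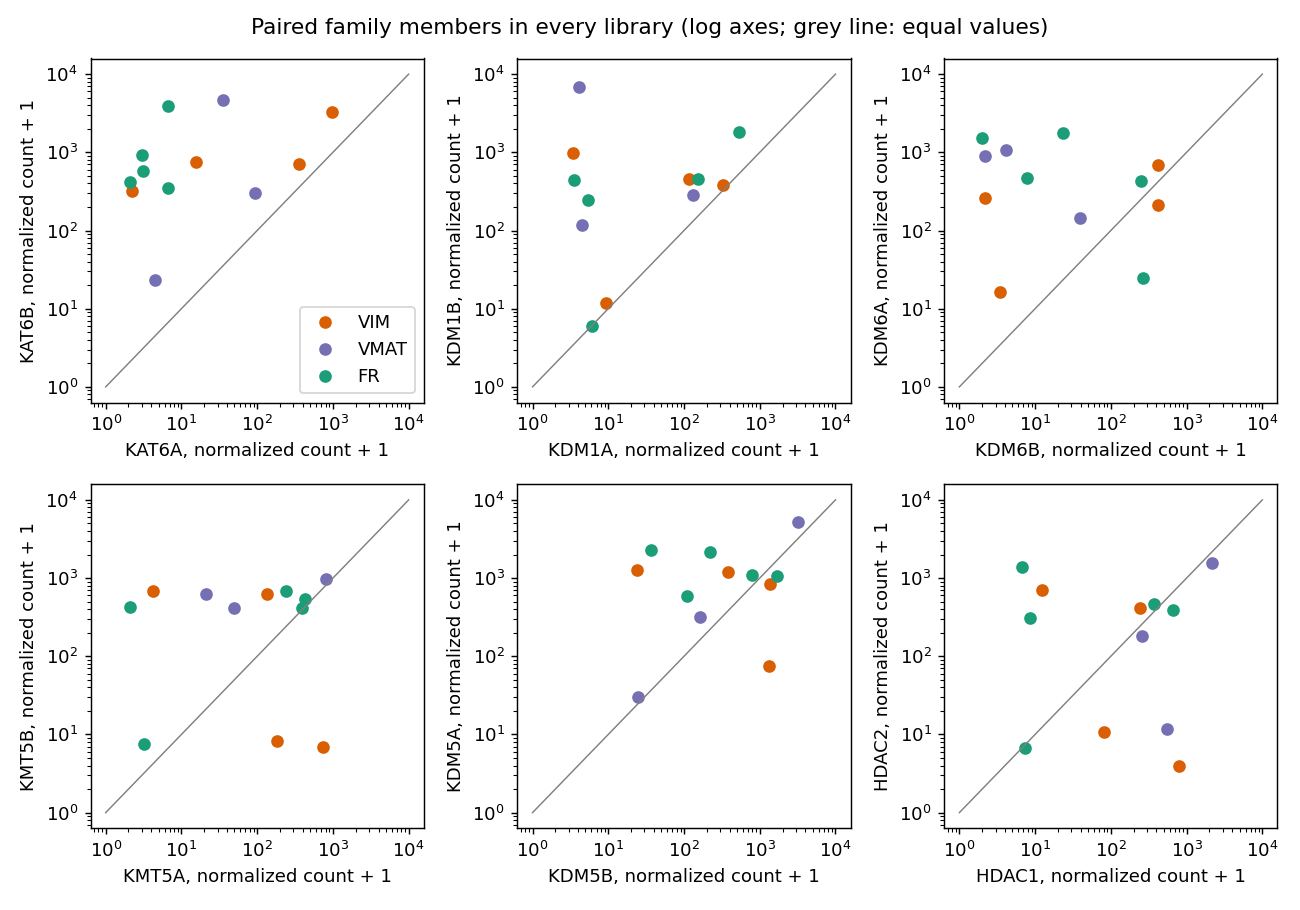
Normalized counts + 1 of paired family members (log axes), 1 point per library coloured by group; the grey line marks equal values. KAT6B lies above KAT6A in 12 of 12 libraries, while HDAC1 and HDAC2 fall on both sides of the line.

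Other chromatin genes were read from 6 lists (corepressors, heterochromatin and methylation protection, histone chaperones, other histone writers, other remodeler subunits and Polycomb), of which 57 had a name and were tested. In limma 0 of 57 rose and 0 fell in each comparison, and an unadjusted p under 0.05 was found for 3 of the 57 in VIM vs. FR (3.78% of all genes had one), for 5 in VMAT vs. FR (3.62% of all genes) and for 2 between the vitrified groups (2.98%). DESeq2 called 2, 0 and 2 of them, beside 6.87%, 4.26% and 3.87% of all genes. Of the genes with a name, it called 4.01%, 2.18% and 2.06%. The member with the highest mean in each list is given here as mean ± SD (n = 4 in VIM, 3 in VMAT and 5 in FR). NCOR1, a nuclear corepressor, averaged 3680.1 ± 803 in FR, 2993 ± 1218 in VMAT and 4239.9 ± 2371 in VIM. DPPA3, the maternal factor that protects methylation and restrains UHRF1, averaged 7392 ± 1111 in FR, 9089 ± 6483 in VMAT and 7569 ± 1119.8 in VIM. NAP1L1, a histone chaperone, averaged 6365 ± 5026 in FR, 10471 ± 9534 in VMAT and 3479.9 ± 1313 in VIM. None of these passed the test in any comparison. HAT1, the acetyltransferase of new histone H4, averaged 2179 ± 1376 in FR, 1962 ± 1619 in VMAT and 2490.2 ± 587 in VIM. ARID2, a PBAF subunit, averaged 6438 ± 1369.5 in FR, 10719 ± 8793 in VMAT and 6656 ± 3894 in VIM. RBBP4, a histone-binding subunit shared by PRC2, NuRD and CAF-1, averaged 1168 ± 497 in FR, 2142 ± 2557 in VMAT and 955 ± 427 in VIM.

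The smallest p of each list belonged to MTA2 (log2 fold change -2.98 ± 1.61 in VMAT vs. FR, limma adjusted p = 0.950), CBX5 (log2 fold change -4.07 ± 1.68 in VMAT vs. FR, limma adjusted p = 0.950), BRDT (log2 fold change -4.11 ± 1.37 in VIM vs. FR, limma adjusted p = 0.902), NSD2 (log2 fold change -3.47 ± 1.27 in VMAT vs. FR, limma adjusted p = 0.950), PBRM1 (log2 fold change -2.71 ± 1.03 in VMAT vs. FR, limma adjusted p = 0.950) and RYBP (log2 fold change -3.88 ± 1.58 in VMAT vs. FR, limma adjusted p = 0.950). None passed an adjusted p of 0.05 in limma. The calls of DESeq2 were ASXL1 in both VIM comparisons, MORC3 in VIM vs. FR and NSD2 in VIM vs. VMAT. ASXL1 and MORC3 were named after their values were seen.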

How the data were processed

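Messenger RNA was measured in 12 libraries of pooled horse oocytes (5 FR, 3 VMAT and 4 VIM). Reads were trimmed and aligned by the authors to EquCab3.0 with STAR, unique molecular identifiers were handled with UMI-tools and genes counted with RSEM. The deposited values are a signal per gene: counts that the authors divided by 1 DESeq2 size factor per library. The authors removed 1 VMAT library. All values (100.0%, tolerance 1e-06) were whole multiples of 1 step per library, which gave back whole reads, used for statements on depth and for edgeR and DESeq2. Between 1636620 and 12166950 reads lay on genes, and the floor of 3 reads covers counting error only.

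Each comparison used its own libraries and genes above 0 in at least as many libraries as the smaller group had. Groups were tested with limma 3.58.1 in R 4.3.3 (eBayes with trend) on log2(value + 1), with Benjamini-Hochberg adjustment over all genes tested. Genes were called when the adjusted p was 0.05 or less and the log2 fold change was 1 or more in size. Single genes also had exact two-sided permutation tests over all splits. The alternatives were other pseudocounts, filters and scalings, 1 fit of all libraries, eBayes without trend, a replicate block, DESeq2 1.42.0, the quasi-likelihood test of edgeR 4.0.16, no fold threshold, and leaving out each library. The procedures were tested on simulated data that had less spread between libraries than most members had here. That test therefore does not give the power in these data.

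Libraries of a group differed by far more than counting noise (chi-square per degree of freedom of at least 277 in 19 pairs). Values in every library are given for the DNA methylation genes, the member of highest mean in each other role, and the 5 members of smallest limma p in each comparison; from each list of other chromatin genes, the member of highest mean and the one of smallest p are named. The members and lists were chosen with earlier results of these data known. The values of 1 member are not reported here, though it is included in counts over the members. Gene positions and sequences are not given here.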

Additional observations from a re-analysis of the deposited data

Results flagged for a closer look

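In 4 of 40 groups of 4 or 5 libraries, for the 20 members given in full, 1 library lay farther from the others than Dixon's 95% limit. The limit was applied to normalized counts and not to their log2 values. Its chance rate of about 1 in 20 holds only for normally distributed values, so the flags are given as description. On this scale, FR 2 was flagged for 3 remodeling and methylation genes. BRD7 was at 3519.6 in FR 2 and at 178 to 1093 in the other FR libraries. CHD8 was at 2030.3 in FR 2, against 1.12 to 359.7 in the others. PRMT1 was at 4071 in FR 2, against 735 to 1675 in the others. SMARCC1 was at 415 in VIM 3 and at 3.91 to 63.8 in the other VIM libraries.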

How the results depend on the processing

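Limma called 0 of 44 members under every alternative that kept limma, and leaving out each library in turn gave 0 to 0 in each comparison. DESeq2 called 1 member in VIM vs. FR (KAT6A) and 1 in VMAT vs. FR (CHD1L). In CPM, a scale chosen after seeing the data, 1 member had groups that did not overlap in VIM vs. FR (0 on the deposited scale). In VMAT vs. FR there were 0 (4 on the deposited scale), and between VIM and VMAT 0 (1). Of all genes tested, 1.5%, 2.71% and 4.48% did not overlap in CPM, in the order of these comparisons. Of 512 values of 27 fold changes under the alternatives, 498 kept their sign and side of the threshold, 13 turned sign and 1 became significant. The turns came from leaving out 1 library in DNMT1 in VIM vs. FR (-0.34 to 0.22), UHRF1 in VIM vs. VMAT (-0.047 to 0.44) and TET3 in VIM vs. FR (-0.41 to 0.060), VMAT vs. FR (-0.41 to 1.06) and VIM vs. VMAT (-1.22 to 0.25). The median log2 fold change of all genes in VMAT vs. FR moved from 0.01 to -0.21 with edgeR and -0.18 with DESeq2, and in VIM vs. VMAT from -0.08 to -0.19 with equal column totals, 0.05 with edgeR or quantile normalization and 0.10 with DESeq2. Replicate numbers were not used to pair libraries in the main test. Deviations of same-numbered libraries correlated at -0.030 to 0.013, and 2 of 8, 0 of 6 and 0 of 6 libraries correlated best with their own number. The paper states that FR and VMAT oocytes were matured together before they were assigned to a group. With so few libraries, these correlations do not show whether same-numbered pools shared a session. The fit with the replicate block called 0 members in each comparison, and TET3 in VMAT vs. FR was at -0.035 with that block. The cause of these shifts was not tested. Naming the genes from a reference table was not run, because the table at hand did not carry the identifiers. Values on few reads carry more counting error.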
